A study of Mus musculus with 8 samples.

Results

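The 9 genes described here encode the mouse colony-stimulating factors and their receptors. They were taken by symbol from a table of 55471 genes measured in sorted hippocampal microglia. The list of symbols rests on no measured value, but it was drawn up with earlier results of these data known. There are 4 ligand genes (Csf1, Il34, Csf2 and Csf3) and 5 receptor genes (Csf1r, Csf2ra, Csf2rb, Csf2rb2 and Csf3r), each on 1 row. The cells came from C57/Bl6 mice at postnatal day 30 that had received either interleukin-33 (IL-33), a cytokine of the interleukin-1 family, or phosphate-buffered saline (PBS) 4 hours earlier. Each treatment had 4 libraries, 2 from females and 2 from males. IL-33 libraries carry the replicate numbers 1 to 4, of which 3 and 4 are male, and PBS libraries the numbers 5 to 8, of which 7 and 8 are male. No genotype other than the strain, no dose and no route of injection are given in the labels, and both groups were injected, so that an effect shared by both injections cannot be seen. Cells were sorted by flow cytometry for low CD45, CD11b and absence of Ly-6C, and polyadenylated RNA was read from the transcript's 3′ end. The labels do not say whether each library is a separate animal, and p-values therefore measure the spread between these libraries.

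Microglia depend on signalling through the CSF1 receptor, a receptor tyrosine kinase encoded by Csf1r, for their survival and renewal. Its ligands are CSF1, also called macrophage colony-stimulating factor, and interleukin-34, which in the brain is made mainly by neurons. GM-CSF, encoded by Csf2, acts on myeloid cells through a specific alpha chain (Csf2ra) and a signalling beta chain (Csf2rb) that the interleukin-3 and interleukin-5 receptors also use. Mice, unlike humans, carry an additional beta chain gene, Csf2rb2, whose product serves the interleukin-3 receptor. G-CSF, encoded by Csf3, acts through Csf3r and is best known for its role in neutrophil production. The alpha chains bind the ligand, and the beta chains and Csf3r signal through Janus kinases and STAT transcription factors.

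The genes lie at separate places of the genome (GENCODE release M21, build GRCm38) except for the beta chain pair. Csf2rb2 (chromosome 15, 78282507 to 78305721, minus strand) and Csf2rb (chromosome 15, 78325752 to 78353847, plus strand) stand head to head with 20030 bases between them. Csf2ra is at 61223957 to 61228429 on the minus strand of chromosome 19, and Csf3r at 126024550 to 126044440 on the plus strand of chromosome 4. Csf1 is at 107741048 to 107760469 on the minus strand of chromosome 3, and Csf1r at 61100598 to 61132149 on the plus strand of chromosome 18. Among annotated genes with a mean value of at least 10, Hmgxb3 alone overlapped a member. Its minus-strand end shares 873 bases with the Csf1r gene, and its own value was 307 ± 295 after PBS and 212 ± 147 after IL-33 (SD, n = 4), far below that of Csf1r.

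**Figure D1:**
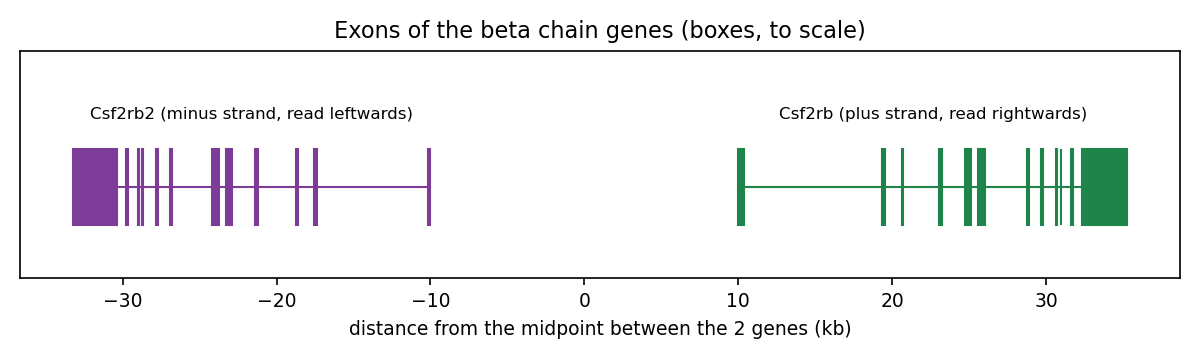
Exons (boxes) of transcripts Csf2rb2-201 and Csf2rb-206, drawn to scale by distance in kb from the midpoint between both genes. The 5′ ends face each other across 20030 bases, and the last exon, where 3′ end reads fall, is at the far side of each gene.

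Of the 9 genes, 5 were matched in RefSeq's promoter table (build GRCm38.p6). The 250 bases before the start are shown for Csf2rb2, a beta chain gene that was higher after IL-33. They are also shown for Csf2ra, the alpha chain gene of the GM-CSF receptor, and for Csf1, the ligand gene that had reads. Capitals mark letters that match a searched motif on either strand.
Csf2rb2, chr15:78305722-78305971, minus strand: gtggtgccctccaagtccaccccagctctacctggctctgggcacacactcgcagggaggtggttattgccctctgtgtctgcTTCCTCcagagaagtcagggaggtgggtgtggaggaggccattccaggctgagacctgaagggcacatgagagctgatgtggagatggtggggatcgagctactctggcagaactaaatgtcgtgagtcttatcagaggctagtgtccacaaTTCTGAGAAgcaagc
Csf2ra, chr19:61228419-61228668, minus strand: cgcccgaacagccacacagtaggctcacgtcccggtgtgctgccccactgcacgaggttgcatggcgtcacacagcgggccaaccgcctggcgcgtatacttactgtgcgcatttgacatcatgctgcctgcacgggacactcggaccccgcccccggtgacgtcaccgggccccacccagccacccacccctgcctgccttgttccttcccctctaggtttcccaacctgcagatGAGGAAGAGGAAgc
Csf1, chr3:107760470-107760719, minus strand: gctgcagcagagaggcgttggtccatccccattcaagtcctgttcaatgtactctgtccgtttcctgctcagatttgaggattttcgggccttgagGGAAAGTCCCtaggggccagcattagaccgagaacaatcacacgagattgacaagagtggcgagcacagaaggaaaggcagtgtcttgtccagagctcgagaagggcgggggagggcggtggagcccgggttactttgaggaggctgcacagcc
The motifs, searched on both strands, were GAGGAA (the core bound by PU.1, a myeloid transcription factor), the NF-κB motif, TGANTCA (AP-1), TTCNNNGAA (STAT) and TTGCNNAA (C/EBP), none of which overlapped another in these windows. The Csf2rb2 window held GAGGAA once, read on the opposite strand, and TTCNNNGAA once. The Csf2ra window held GAGGAA in 2 adjacent copies just before the RefSeq start. GENCODE places this gene's start at 61228429, inside the window, so that these copies lie across or inside the gene as annotated there. The Csf1 window held the NF-κB motif once, also on the opposite strand. Over 32851 RefSeq promoter windows of the same length, 23.3% held GAGGAA, 7.02% held TTCNNNGAA and 4.11% held the NF-κB motif, so that these letters are not rare. TGANTCA, present in 6.75% of windows, was in none of the 5, and TTGCNNAA, present in 9.56%, was in that of Csf2, which is not shown. A match of letters is a description of the sequence and not of binding.

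The libraries held 16.83 to 21.48 M reads assigned to genes. Values are normalised read counts, that is, reads divided by 1 factor per library. One read was worth 0.732 to 1.04 in these units. Of the 9 genes, 6 had reads and all 6 passed the filter for testing (mean value of 10 or more). At a Benjamini-Hochberg adjusted p under 0.05 in limma, 2 of the 6 were higher after IL-33 (Csf2rb and Csf2rb2), where 3.06% of the 13877 tested genes were called higher, and 1 was lower (Csf1r), where 2.80% were called lower. The groups of Csf2rb and Csf2rb2 did not overlap, as in 13.7% of tested genes (6.26% higher and 7.41% lower after IL-33). On the recovered reads, edgeR called the same 2 members higher and 0 lower (background 3.16% and 2.29%, 5.46% in all), and DESeq2 called 3 higher and 0 lower (background 5.69% and 6.32%). Without IL-33 replicates 3 and 4, limma called Csf2rb alone, where 2.05% of genes were higher and 3.40% lower (5.44% in all). Replicates 3 and 4 are the male IL-33 libraries, so that this fit sets female IL-33 libraries against PBS libraries of both sexes. The median log2 fold change was 0.31 over the 6 members and −0.40 over all tested genes. Quantile normalization moved the latter by 0.29. Genes with at least 10 reads numbered 10311 to 11902 per PBS library and 7958 to 10736 per IL-33 library, with the fewest in IL-33 replicates 4 and 3.

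**Figure D2:**
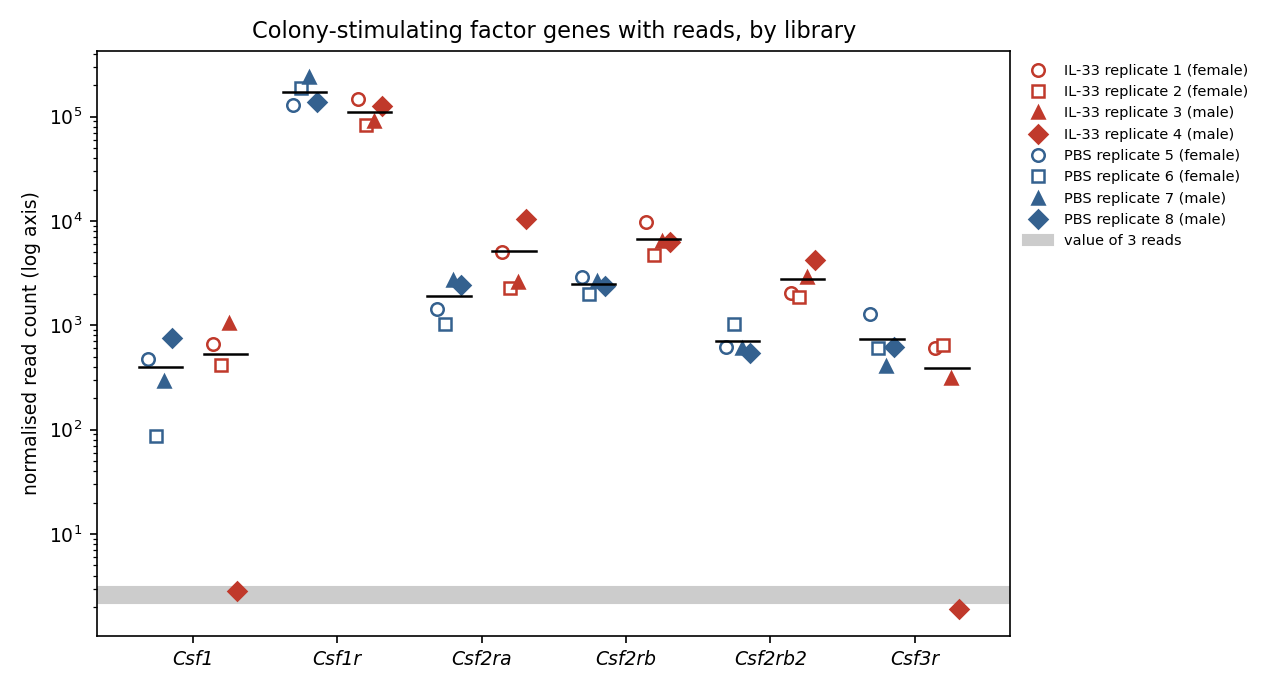
Normalised read counts (log axis) of the 6 genes with reads in each library, with PBS in blue, IL-33 in red, open symbols for females and filled symbols for males. Black lines are group means, and the grey band is the value of 3 reads. All IL-33 values of Csf2rb and Csf2rb2 lie above all PBS values, and IL-33 replicate 4 lies at 2.87 for Csf1 and 1.91 for Csf3r.

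Among the ligands, reads were found for Csf1 alone. Il34, Csf2 and Csf3 had 0 reads in each of the 8 libraries, out of 155 M reads in all. A count of 0 allows up to 3 reads per library, which is 2.20 to 3.12 on the normalised scale and covers counting error only. Transcripts of interleukin-34, GM-CSF and G-CSF were thus not detectable at this depth in microglia of either group. The other known ligands of the beta chains were looked for in the same way, and neither Il3 nor Il5 had a read in any library.

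Csf1 was present at a low level with a wide spread. It stood at 475, 86.9, 295 and 752 in PBS replicates 5 to 8, and at 656, 420, 1054 and 2.87 in IL-33 replicates 1 to 4. Of the IL-33 libraries, 3 lay within or above the PBS range, and replicate 4 lay far below it with 3 reads. The means were 402 ± 282 after PBS and 533 ± 440 after IL-33 (SD, n = 4 each), and no difference was called (log2 fold change −0.76 ± 1.44 SE, adjusted p = 0.786 in limma). The sign varied with the fit: without IL-33 replicate 4 the log2 fold change was 1.09 (adjusted p = 0.492), edgeR on the recovered reads gave 0.41 (adjusted p = 0.904), and quantile normalization gave 0.50. Because RNA was pooled over sorted cells, fewer cells with a transcript and less of it per cell cannot be told apart, here and in all results that follow.

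Csf1r, the receptor of CSF1 and interleukin-34, was by far the most abundant of the family and was lower after IL-33. Its values were 129157, 188517, 237876 and 139219 in PBS replicates 5 to 8, and 146587, 82555, 91400 and 125874 in IL-33 replicates 1 to 4. The groups overlapped, since IL-33 replicate 1 lay above PBS replicates 5 and 8. The mean fell from 173692 ± 50037 to 111604 ± 29886, a 1.56-fold difference (log2 fold change −0.63 ± 0.18 SE, adjusted p = 0.0464). The call was close to the threshold, and it was lost in edgeR (adjusted p = 0.153) and DESeq2 (adjusted p = 0.119), and in 5 of the 8 limma fits that left out 1 library. The sign was negative in all 19 alternatives tried.

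Csf1r remained among the leading transcripts of these cells. It took 1.07 ± 0.30% of reads after PBS and 0.620 ± 0.164% after IL-33. By read number it ranked 9, 5, 4 and 7 in PBS replicates 5 to 8. In IL-33 replicates 1 to 4 it ranked 12, 16, 13 and 12. A rank also depends on the levels of other genes. The share of reads overlapped between the groups (0.838% in IL-33 replicate 1, 0.795% in PBS replicate 5). The labelled cell type was checked with 8 microglial marker genes, all of which had reads. Their summed level was 221582 to 254698 after PBS and 97437 to 115442 after IL-33. Of the 8, 5 were called lower, where 2.80% of all tested genes were. Their part in the Csf1r result was not tested.

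Both beta chain genes were called higher after IL-33 in limma. The mean of the alpha chain gene Csf2ra rose 2.69-fold, close to Csf2rb, but did not pass in limma. Il3ra, the alpha chain gene for interleukin-3, was not tested. Both alpha chain genes are given further on. Csf2rb, the common beta chain, stood at 2886, 2000, 2633 and 2402 in PBS replicates 5 to 8 and at 9714, 4711, 6428 and 6231 in IL-33 replicates 1 to 4. The lowest IL-33 library lay above the highest PBS library. The mean rose 2.73-fold, from 2480 ± 376 to 6771 ± 2107 (1.41 ± 0.32 SE on the log2 scale, adjusted p = 0.0096 in limma and 0.00717 in edgeR). Of the 6 genes, Csf2rb was the one called in every fit that left out 1 library, and its call was lost without a variance trend (adjusted p = 0.195).

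Csf2rb2, the mouse beta chain of the interleukin-3 receptor, moved likewise. Its values were 618, 1039, 606 and 540 in PBS replicates 5 to 8 and 2020, 1872, 2880 and 4225 in IL-33 replicates 1 to 4. These groups did not overlap either, and both male IL-33 libraries lay above both female ones. The mean rose 3.92-fold, from 701 ± 228 to 2749 ± 1080 (1.94 ± 0.47 SE on the log2 scale, adjusted p = 0.0174 in limma and 0.0081 in edgeR). Without PBS replicate 8 the adjusted p was 0.0547. Without IL-33 replicates 3 and 4, the libraries with the fewest genes, it was 0.101 with a log2 fold change of 1.52. Replicates 3 and 4 are also the male IL-33 libraries, so that few genes and sex cannot be told apart in this fit. The call was also lost without a variance trend (adjusted p = 0.116).

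The beta chain genes are paralogs, and reads could be assigned to the wrong one. Their reference transcripts matched at 92.2% of 4619 aligned bases. Of all stretches of 50 bases in the Csf2rb transcript, 18.4% were also found in a Csf2rb2 transcript. No such stretch was shared in its last 500 bases, from which 3′ end reads mostly come, nor in the last 500 bases of Csf2rb2. The Csf2rb transcript used, Csf2rb-206, ends at 78351001, short of the annotated gene end at 78353847. Stretches beyond that point were not checked in this way. How the counting treated reads that match several places is not given in the sources used here. The sum of both genes does not depend on which of them a read was given to, but it lacks any reads left uncounted. It was 2942 to 3504 after PBS and 6582 to 11734 after IL-33, a 2.99-fold rise in the mean from 3181 ± 249 to 9520 ± 2195. In a fit with the summed row in place of both genes the log2 fold change was 1.55 ± 0.28 SE (adjusted p = 0.0014 in limma and 0.00131 in edgeR), and the call held without any 1 library, with log2 fold changes of 1.44 to 1.72. As for each gene alone, it was lost without a variance trend (adjusted p = 0.151).

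Csf2rb2 took 17.6% (95% Wilson interval 16.5 to 18.8%), 34.2% (32.6 to 35.8%), 18.7% (17.5 to 20.0%) and 18.4% (17.2 to 19.6%) of the reads of both genes in PBS replicates 5 to 8. After IL-33 it took 17.2% (16.5 to 17.9%), 28.4% (27.4 to 29.4%), 30.9% (30.01 to 31.9%) and 40.4% (39.5 to 41.3%) in replicates 1 to 4. The groups overlapped, with PBS replicate 6 above all IL-33 libraries but replicate 4. The mean share was 22.2 ± 7.99% after PBS and 29.2 ± 9.54% after IL-33, a difference within the spread of the libraries (exact permutation p = 0.371, two-sided, where 0.0286 is the smallest possible). The share does not depend on how libraries were scaled, and its intervals cover counting error only.

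**Figure D3:**
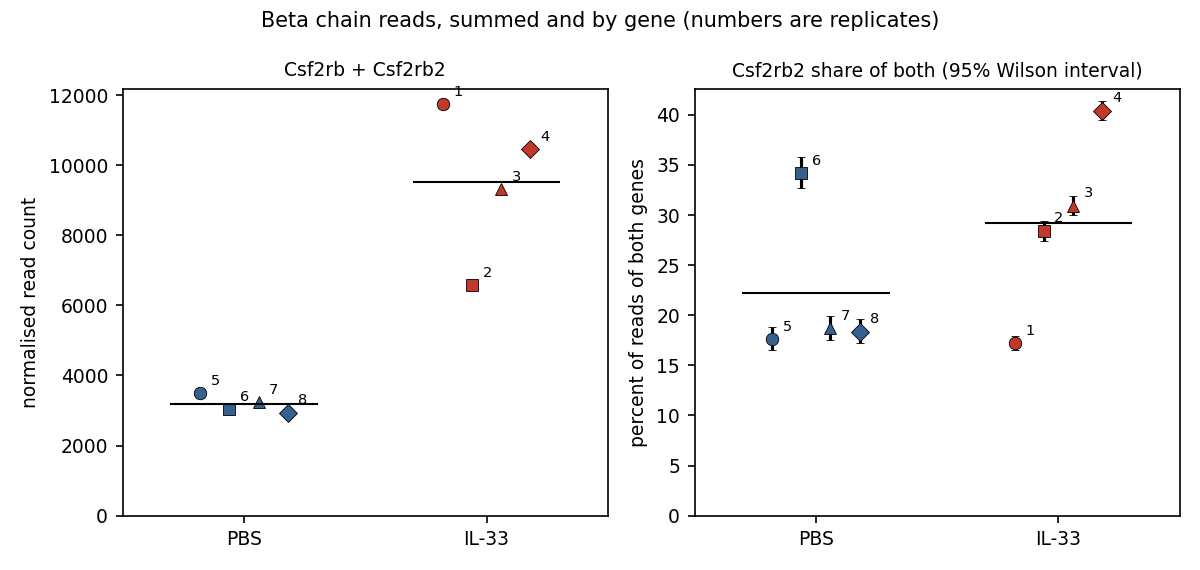
Left, normalised read counts of Csf2rb and Csf2rb2 summed, per library. Right, the Csf2rb2 share of the reads of both genes in percent, with 95% Wilson intervals. Numbers are replicates and lines are group means. The summed level is 2942 to 3504 after PBS and 6582 to 11734 after IL-33, while the shares of the groups overlap.

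Csf2ra, the alpha chain that binds GM-CSF, had a 2.69-fold higher mean after IL-33 without passing the test in limma. It stood at 1423, 1028, 2713 and 2420 in PBS replicates 5 to 8 and at 5026, 2264, 2588 and 10527 in IL-33 replicates 1 to 4. IL-33 replicates 2 and 3 lay within the PBS range, and replicates 1 and 4 above it. The means were 1896 ± 800 and 5101 ± 3822 (log2 fold change 1.25 ± 0.47 SE, adjusted p = 0.141 in limma and 0.0744 in edgeR), and DESeq2 called the gene higher (1.43, adjusted p = 0.0341). Without IL-33 replicate 4 the IL-33 mean was 3292 ± 1510 and the log2 fold change 0.81 (adjusted p = 0.288). Relative to the summed beta chains, Csf2ra reads were 0.601 ± 0.266 per beta chain read after PBS and 0.514 ± 0.334 after IL-33 (exact permutation p = 0.857, two-sided). IL-33 replicate 4 was at 1.01 in this ratio and the other IL-33 libraries at 0.278 to 0.428. The sum includes Csf2rb2, the beta chain of the interleukin-3 receptor, and a ratio to Csf2rb alone was not taken.

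The nearest tested genes on either side of the beta chains were looked at after their values had been seen. Ncf4, which encodes a subunit of the phagocyte NADPH oxidase, lies 19926 bases beyond the 3′ end of Csf2rb2. Its mean rose from 511 ± 287 to 2765 ± 1370, with groups that did not overlap (2.53 ± 0.60 SE on the log2 scale, adjusted p = 0.015). The call was lost without IL-33 replicate 1 (adjusted p = 0.0662) and without a variance trend (adjusted p = 0.132). On the other side, 52568 bases beyond Csf2rb, the means of Mpst were 207 ± 61.0 with PBS and 184 ± 184 with IL-33 (adjusted p = 0.579).

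Csf3r, the receptor of G-CSF, had no called difference. It stood at 1296, 607, 407 and 620 in PBS replicates 5 to 8 and at 603, 643, 311 and 1.91 in IL-33 replicates 1 to 4. Replicates 1 and 2 lay within the PBS range and replicate 3 somewhat below it, while replicate 4 had 2 reads. The means were 733 ± 388 and 390 ± 298 (log2 fold change −2.29 ± 1.34 SE, adjusted p = 0.367 in limma). The size depended on replicate 4, without which it was −0.43 (adjusted p = 0.728), and on the scale, since edgeR gave −0.90 (adjusted p = 0.705).

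Csf1 and Csf3r shared this near loss in IL-33 replicate 4 with many genes. In that library 364 of 5641 genes (6.45%) that were at 50 or more in each of the other 7 libraries had at most 3 reads, limits that were chosen after the values of Csf1 and Csf3r had been seen. The same count was 134 (2.54%) in IL-33 replicate 3 and 17 to 54 in the other libraries. IL-33 replicate 4 also had the fewest genes with at least 10 reads, 7958. Replicate 4 was the highest of the 8 libraries for Csf2ra and Csf2rb2. The part of this library's smaller number of genes in these values was not tested beyond the fits that leave it out.

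**Figure D4:**
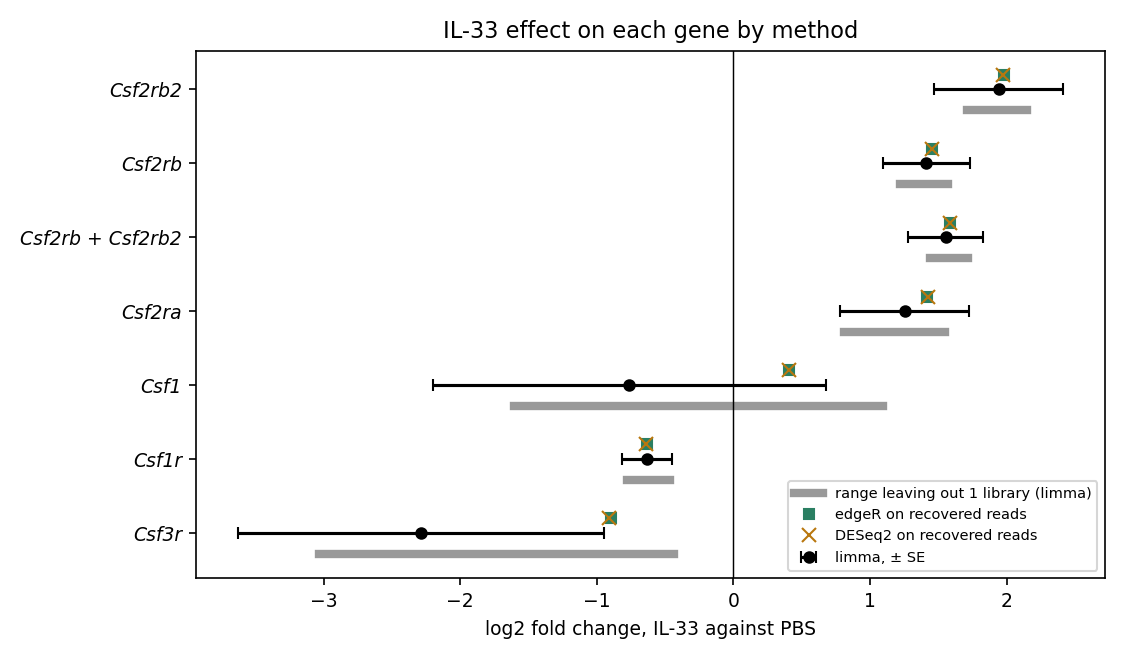
Log2 fold change of IL-33 against PBS for each gene with reads and for the summed beta chains. Black points are limma ± SE, green squares edgeR, orange crosses DESeq2, and grey bars the range of the limma value when 1 library is left out. The 3 methods nearly coincide for Csf2rb, Csf2rb2 and Csf1r and part for Csf1 (−0.76, 0.41 and 0.41) and Csf3r (−2.29, −0.90 and −0.91).

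Since 3′ end reads do not scale with transcript length, the genes were ordered within the family by normalised read count. Other differences between genes in the capture or assignment of reads were not corrected for, so the order is one of read counts. After PBS the means fell in the order Csf1r, Csf2rb, Csf2ra, Csf3r, Csf2rb2 and Csf1. Csf1r stood apart from all others in every library. The ranges of all further neighbours in that order overlapped. After IL-33 the order was Csf1r, Csf2rb, Csf2ra, Csf2rb2, Csf1 and Csf3r, in which Csf2rb2 (1872 to 4225) lay wholly above Csf1 (2.87 to 1054) and the neighbours among Csf2rb, Csf2ra and Csf2rb2 overlapped.

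Likeness to other genes was measured as the root mean square difference in log2(value + 1), each gene centred on its own mean, over the 8 libraries and among 3116 genes with a mean of at least 1000. For Csf1r the closest were Grn (0.0936), Gcnt1 (0.22) and Orai1 (0.22), against a median of 0.838 over all genes compared. The mean of Grn was 36520 with PBS and 24836 with IL-33. For Csf2rb they were Vav1 (0.22), Rpl5 (0.237) and Ier5 (0.24), and for Csf2rb2 they were Vmp1 (0.171), Mat2a (0.214) and 2510009E07Rik (0.257). Csf1 was closest to Dctn4 (0.797) and Csf3r to Micos13 (0.408). In the Csf1 and Csf3r profiles, IL-33 replicate 4 lies farthest from the mean.

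No difference of the IL-33 effect between the sexes passed the test, with 2 libraries per sex and treatment. The interaction was called for 0 of 13877 genes (0.00%) in limma and in edgeR, and 809 (5.83%) had an unadjusted p under 0.05 in limma. Csf2rb had log2 fold changes of 1.49 ± 0.44 SE in females and 1.33 ± 0.44 in males (difference 0.16 ± 0.63, adjusted p = 0.958). For Csf2rb2 the values were 1.28 ± 0.57 in females and 2.61 ± 0.57 in males (difference −1.33 ± 0.81, adjusted p = 0.783). For Csf1r they were −0.50 ± 0.33 and −0.76 ± 0.33 (difference 0.26 ± 0.46, adjusted p = 0.882). None of these 3 genes passed the threshold within a sex. A p that misses it does not show that the sexes respond alike.

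The signalling genes around these receptors were described with 4 lists of 77 genes, of which 76 matched a row. Of these, 69 were tested, 8 were higher, 5 were lower and 56 did not pass, where 5.85% of all tested genes were called in either direction. Among 26 genes that carry or attenuate signals of the CSF1 receptor, 3 rose, 1 fell and 22 did not pass, with a median log2 fold change of 0.46. Among those that rose were the Src family kinase Lyn (13484 ± 3968 to 53419 ± 4805, log2 fold change 2.03, adjusted p = 1.24e-06) and Sla, an adaptor that dampens receptor signals (3378 ± 1036 to 17464 ± 1307, 2.43, adjusted p = 6.89e-06). Inpp5d, the lipid phosphatase SHIP1, which limits signalling through phosphatidylinositol 3-kinase, fell from 12098 ± 2104 to 4078 ± 1504 (−1.62, adjusted p = 0.00131). Lyn, Sla and Inpp5d were called in every fit that left out 1 library, and without a variance trend Lyn (adjusted p = 0.0755) and Inpp5d (adjusted p = 0.164) lost their call.

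Of 23 genes of the Janus kinase and STAT pathway used by the beta chains and Csf3r, 3 rose, 0 fell and 20 did not pass, with a median of 1.07. The shares of all tested genes were 3.06% higher and 2.80% lower. edgeR called 4 higher and 0 lower in this list, and 6 higher and 0 lower genes had an unadjusted p under 0.05 in limma, a threshold passed by 7.88% of all tested genes as higher and 11.6% as lower. The feedback inhibitor Socs3 (260 ± 353 to 8448 ± 6509, log2 fold change 6.08, adjusted p = 2.02e-04) and the kinase Pim1 (224 ± 171 to 3707 ± 1149, 4.86, adjusted p = 0.00198, lost without a variance trend at 0.0818) rose, as did Jak2, the kinase bound to the beta chain (582 ± 217 to 2018 ± 764, 1.79, adjusted p = 0.0495). The Jak2 call was lost in each fit that left out 1 library and without a variance trend (adjusted p = 0.156). Among genes named after their values were seen, neither STAT5 gene was called. Stat5a averaged 302 ± 179 with PBS and 303 ± 214 with IL-33, and Stat5b 428 ± 233 and 852 ± 494. Cish, a feedback gene induced by STAT5 in many cells, averaged 0.212 ± 0.423 and 20.5 ± 41.0, with no call.

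Of 15 tested transcription factors that act on Csf1r and other myeloid receptor genes, 2 rose, 3 fell and 10 did not pass, with a median of −0.28. Of all tested genes, 3.06% were called higher and 2.80% lower. Cebpd, a C/EBP factor induced in inflammation, rose from 1540 ± 956 to 16136 ± 11170 (3.31, adjusted p = 5.58e-04), a call lost without a variance trend (adjusted p = 0.0952). Runx1, chosen with its values in view, rose from 2799 ± 708 to 6115 ± 837 (1.15, adjusted p = 0.0302). The Runx1 call was lost in 5 of the 8 fits that left out 1 library and without a variance trend (adjusted p = 0.275). Cebpa, a C/EBP factor of myeloid differentiation, fell from 2247 ± 1098 to 247 ± 188 (−3.40, adjusted p = 0.00576), a call lost without PBS replicate 8 (adjusted p = 0.0506) and without a variance trend (adjusted p = 0.0646). Fli1, a factor of the ETS family, fell from 2274 ± 1049 to 374 ± 397 (−3.92, adjusted p = 0.0386). The Fli1 call was lost in 5 of the 8 fits that left out 1 library. It was also lost in edgeR (adjusted p = 0.0697) and without a variance trend (adjusted p = 0.232). Spi1, which encodes PU.1, is likewise outside the naming rule. It averaged 3335 ± 1473 with PBS and 5929 ± 2145 with IL-33 (adjusted p = 0.201).

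The 12 genes that share chains, ligands or family with these receptors were mostly at or near 0, and 5 were tested. Kitl, the ligand of the receptor Kit, was the 1 gene called. It fell from 254 ± 107 with PBS to no read in any IL-33 library (adjusted p = 0.0256), and the call was lost when any 1 PBS library was left out. Kit, Il5ra and Sdc1, a further binding partner of interleukin-34, had no reads in any library, and Il3ra, the alpha chain for interleukin-3, had reads in PBS replicate 6 alone (mean 5.33 ± 10.7). Pdgfrb, a related receptor tyrosine kinase 15536 bases before Csf1r, averaged 0.205 ± 0.411 with PBS and 33.2 ± 66.5 with IL-33 (adjusted p = 0.635). Ptprz1, another binding partner of interleukin-34, averaged 64.9 ± 129 and 13.2 ± 21.9 (adjusted p = 0.969).

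**Figure D5:**
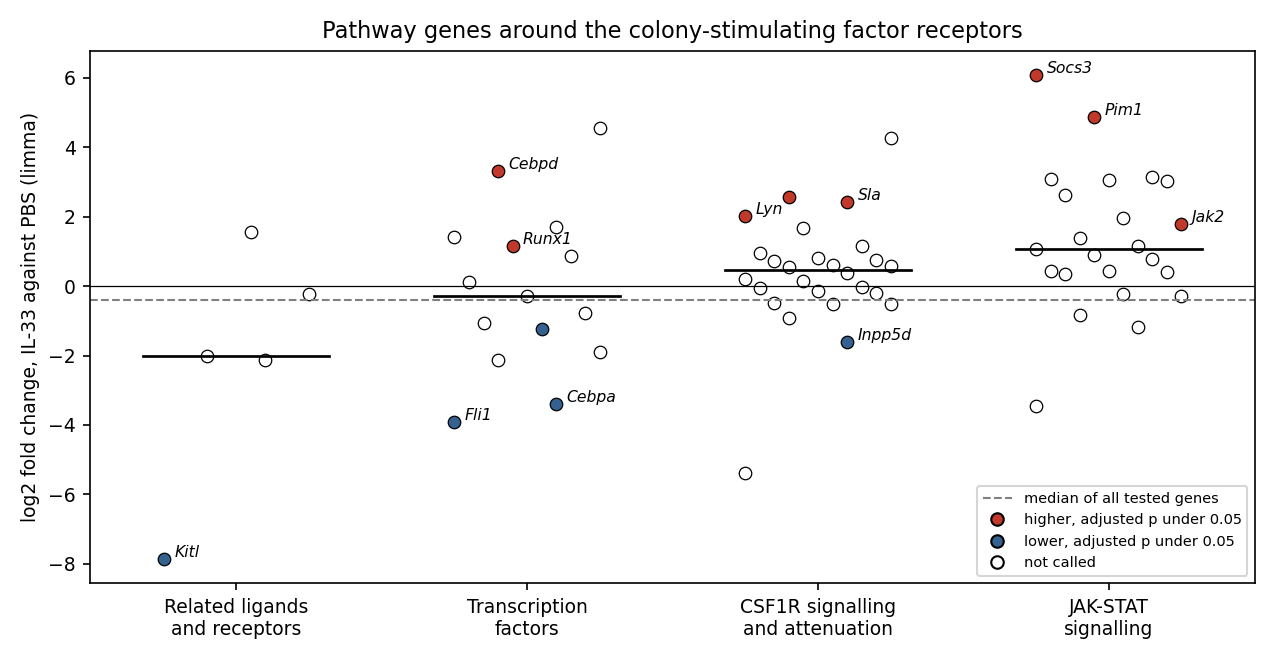
Log2 fold changes (limma) of the tested genes in the 4 pathway lists, with called genes filled and those described in the text named. Black bars are list medians (−2.02, −0.28, 0.46 and 1.07 from left to right) and the dashed line is the median of all tested genes, −0.40. The leftmost median, over 5 tested genes, is the value of Flt3, which had reads in PBS replicate 6 alone.

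Markers of other cells that carry these receptors or make these ligands were examined beside the results. Of 10 neutrophil genes, which would accompany Csf3r in neutrophils, 8 had no read in any library, S100a8, S100a9 and Ly6g among them, and their summed level was at most 0.987. All 6 mast cell and basophil markers were at 0 in every library. Of 8 monocyte markers, 2 were at 0, Chil3 among them, and the sum was 6.82 to 161 after PBS and 114 to 717 after IL-33. Of 6 dendritic cell markers 2 (Clec9a and Cd209a) were at 0, with a sum of 55.9 to 348 after PBS and 459 to 2031 after IL-33, so that these sums did not overlap. The IL-33 sum was mostly Itgax (819 ± 529, adjusted p = 0.0584 against PBS) and Xcr1 (336 ± 327, adjusted p = 0.18), and edgeR called Xcr1 higher (adjusted p = 0.044). Their part in the beta chain results was not tested. Border macrophage markers summed to 31.5 to 595 after PBS and 10.9 to 619 after IL-33. Astrocyte markers, which would accompany Csf1 from astrocytes, summed to 3079 to 5588 after PBS and 5567 to 8508 after IL-33, most of it Slc1a3, and oligodendrocyte markers to 2536 to 4624 and 2484 to 5971. Sums of neuronal (219 to 876 and 50.3 to 1886) and of endothelial and mural markers (108 to 700 and 161 to 594) overlapped between the groups. Of 8 lymphocyte markers 6 were at 0, and the sum, 1177 to 2052 after PBS and 4.23 to 72.7 after IL-33, was nearly all Il7r.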

How the data were processed

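Sorted hippocampal microglia of 8 libraries were profiled with 3′ end RNA sequencing (Lexogen QuantSeq FWD, per the labels' protocols). The deposited table holds a signal per gene and library, read counts divided by 1 factor per library: whole reads recovered from it made up 100% of values above 0, within 0.01 read. STAR 2.5.4b, DESeq2 1.24.0, HTSeq 0.9.0, FastQC and the builds GRCm38 and mm10 are listed, without roles, per the submitters' processing notes. Strand use and treatment of duplicates are not stated there, and reads without molecular identifiers are not independent molecules.

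IL-33 was compared with PBS in limma 3.58.1 (R 4.3.3) on log2(value + 1) with a variance trend, two-sided, over 13877 genes with a mean of at least 10. Fold changes are differences of mean log2(value + 1). The added 1 shrinks changes of low genes. A library near 0 can instead make them larger than the log2 ratio of means, as for Csf3r (−2.29 against −0.91). The interaction with sex used a mean per treatment and sex. Alternatives were pseudocounts of 0.5 and 5, no filter and a minimum of 50, TMM, quantile normalization, no trend, sex as covariate, edgeR 4.0.16 and DESeq2 1.42.0 on recovered reads, and each library left out. Fits were also run on simulated data, in which no library was made to lack genes as IL-33 replicate 4 did. The outcome is not given here and is not used as support. Summing the beta chains and leaving out IL-33 replicates 3 and 4 were added after the data were seen. Named genes were all members, up to 4 called genes per list (or the 2 most abundant where none was called), and the 3 closest profiles, of which 1 is given for Csf1 and Csf3r. A few genes that this rule names are not reported here. The members and lists were chosen with earlier results of these data known. Samples were grouped by the labels.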

Additional observations from a re-analysis of the deposited data

Results flagged for a closer look

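IL-33 replicate 4 lay far from the other 3 IL-33 libraries on the log2 scale for 2 of the 6 genes with reads. Csf1 was at 2.87 there and at 420 to 1054 in the other 3, and Csf3r was at 1.91 there and at 311 to 643 in the other 3. The gap to the nearest library was 0.836 of the group's range for Csf1 and 0.866 for Csf3r, above Dixon's critical value for 4 samples. Chance marks about 1 in 20 groups, and 12 groups were examined. No member's IL-33 effect differed between the sexes by the interaction test.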

How the results depend on the processing

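The rise of the summed beta chains was called in 18 of 19 alternatives (log2 fold changes of 1.34 to 1.72), that of Csf2rb in 18 of 19 and that of Csf2rb2 in 16 of 19. Without a variance trend none of these was called (1.55, adjusted p = 0.151, 1.41, adjusted p = 0.195, and 1.94, adjusted p = 0.116). Csf2rb2 ranged from 1.71 to 2.15 with 1 library left out, and was at 1.52 without IL-33 replicates 3 and 4. Csf2ra was called by DESeq2 alone (1.43). Csf1r was called in 7 of 19 alternatives: its value was −0.63 with no filter, a minimum mean of 50, no trend, sex as covariate or edgeR, −0.64 in DESeq2, −0.62 without IL-33 replicates 3 and 4, and −0.78 to −0.47 with 1 library left out; the call was lost in each of these except 3 of the 8 fits that left out 1 library (adjusted p up to 0.557). Csf1 changed sign under quantile normalization (0.50), edgeR (0.41), DESeq2 (0.41) and without IL-33 replicates 3 and 4 (0.76), and ranged from −1.60 to 1.09 with 1 library left out. The cause was not tested where no library was removed. Csf3r was called in none of 19.

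Members called higher numbered 0 without a trend, 1 without IL-33 replicates 3 and 4 and 1 to 2 with 1 library left out, and members called lower 0 or 1. Over all genes, 175 were higher and 238 lower without a trend, 790 and 877 in DESeq2, and 204 lower with no filter, with 153 to 531 lower when 1 library was left out. Of the pathway genes, 3 were higher and 1 lower without a trend, 13 higher in DESeq2, and 3 lower with no filter, with 2 to 6 lower when 1 library was left out. Without IL-33 replicates 3 and 4, 7 were higher and 5 lower. No paired analysis was possible because the labels give no pairing of libraries between the groups. Depth limits the statements on Il34, Csf2 and Csf3 to 3 reads per library.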
